A study of Bos taurus with 40 samples.

Results

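The 62 CD antigen genes described here were all gene symbols in the count tables made of the letters CD, a number and at most 2 further letters, with CD74 left out, and they were 62 of the 13570 genes counted. They were read in 40 RNA libraries of 10 Korean cattle slaughtered at over 22 months of age, 5 cows and 5 bulls. Each animal gave 1 library of the liver, of the abdominal fat, of the intact longissimus dorsi muscle and of the pituitary gland, so each tissue had 5 female and 5 male libraries. Cows and bulls are numbered 1 to 5 by their replicate number, and a number was taken to mark 1 animal of its sex in every tissue. A cow and a bull that share a number are not a pair. CD33 and CD97 match RefSeq genes by a synonym, of the locus LOC100138951 and of ADGRE5, and the other 60 match by their symbol. No treatment, genotype or transgene is given in the labels, and every library is RNA of a whole piece of tissue. The study compared the sexes within and across these tissues, and the tissues themselves are compared here with sex as a term.

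The CD (cluster of differentiation) numbers were given to cell-surface molecules that antibodies recognise on leukocytes, and many of the molecules are also made by vessels, fat cells, epithelium or nearly every cell. T cells carry the CD3 chains, which pass on the signal of the antigen receptor, together with CD4 or CD8. B cells carry the receptor chain CD79A, and macrophages carry the scavenger receptor CD163 and the endotoxin receptor CD14. The liver holds a large resident population of macrophages, the Kupffer cells, beside natural killer and T cells, and fat holds macrophages among its fat cells and vessels. By what each gene is known for, the members were put in 10 role groups, which give the order of the results. The working name of the set, markers of resident leukocytes, holds in part only: 44 members are in the 5 leukocyte groups and 18 are not, and whole tissue cannot tell resident from circulating cells.

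Levels are given in CPM, the usual unit for the share of a library's gene reads that fell on 1 gene, scaled by the trimmed mean of M-values (TMM) over the 40 libraries. CPM was not divided by gene length, so levels were compared between libraries for each gene and not between genes. The libraries held 5173092 to 19165864 reads on genes (median 10005607), so that levels near 0.1 CPM rest on few reads. All 62 members had a read in at least 1 library, 39 had a read in every library, and 29 had at least 3 reads in every library. CD1A, CD1B, CD28, CD33, CD177 and CD300LB had 3 reads or more in fewer than 20 libraries. Each tissue showed its own identity genes. The summed CPM of 5 liver genes such as ALB was 134233 to 298493 in liver and at most 1877 elsewhere, and 4 fat cell genes (ADIPOQ was not analysed here) summed to 5448 to 23391 in fat and at most 663 elsewhere. The 5 muscle genes summed to 67888 to 165324 in muscle and at most 116 elsewhere, and the 5 pituitary hormone genes to 81584 to 284474 in pituitary and at most 385 elsewhere.

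A pair of libraries went against the rest. The liver library labelled bull 3 had no read on the Y-linked genes DDX3Y, USP9Y and ZFY and had XIST, the transcript of the inactive X chromosome, at 1401 CPM, inside the range of the cows' livers (681 to 2179 CPM), while the livers of the other bulls stayed at or under 0.936 CPM of XIST. Its counts were closest to the liver of cow 4 (Pearson r = 0.993 on log2 CPM), and the chi-square per degree of freedom between this pair was 15.04, the lowest of the 45 liver pairs (median 111). Sampling noise alone gives 1, so the tables are not copies of 1 library, but whether both came from 1 animal was not tested. The fat library labelled bull 5 had 23 reads on USP9Y (1.78 CPM), where the fat of the other bulls had 28.1 to 34.1 CPM. Unlike the liver library labelled bull 3, it had little XIST, at 1.39 CPM (18 reads), against 316 to 981 CPM in the cows' fat. Calls that changed without either library are named with the results.

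**Figure D1:**
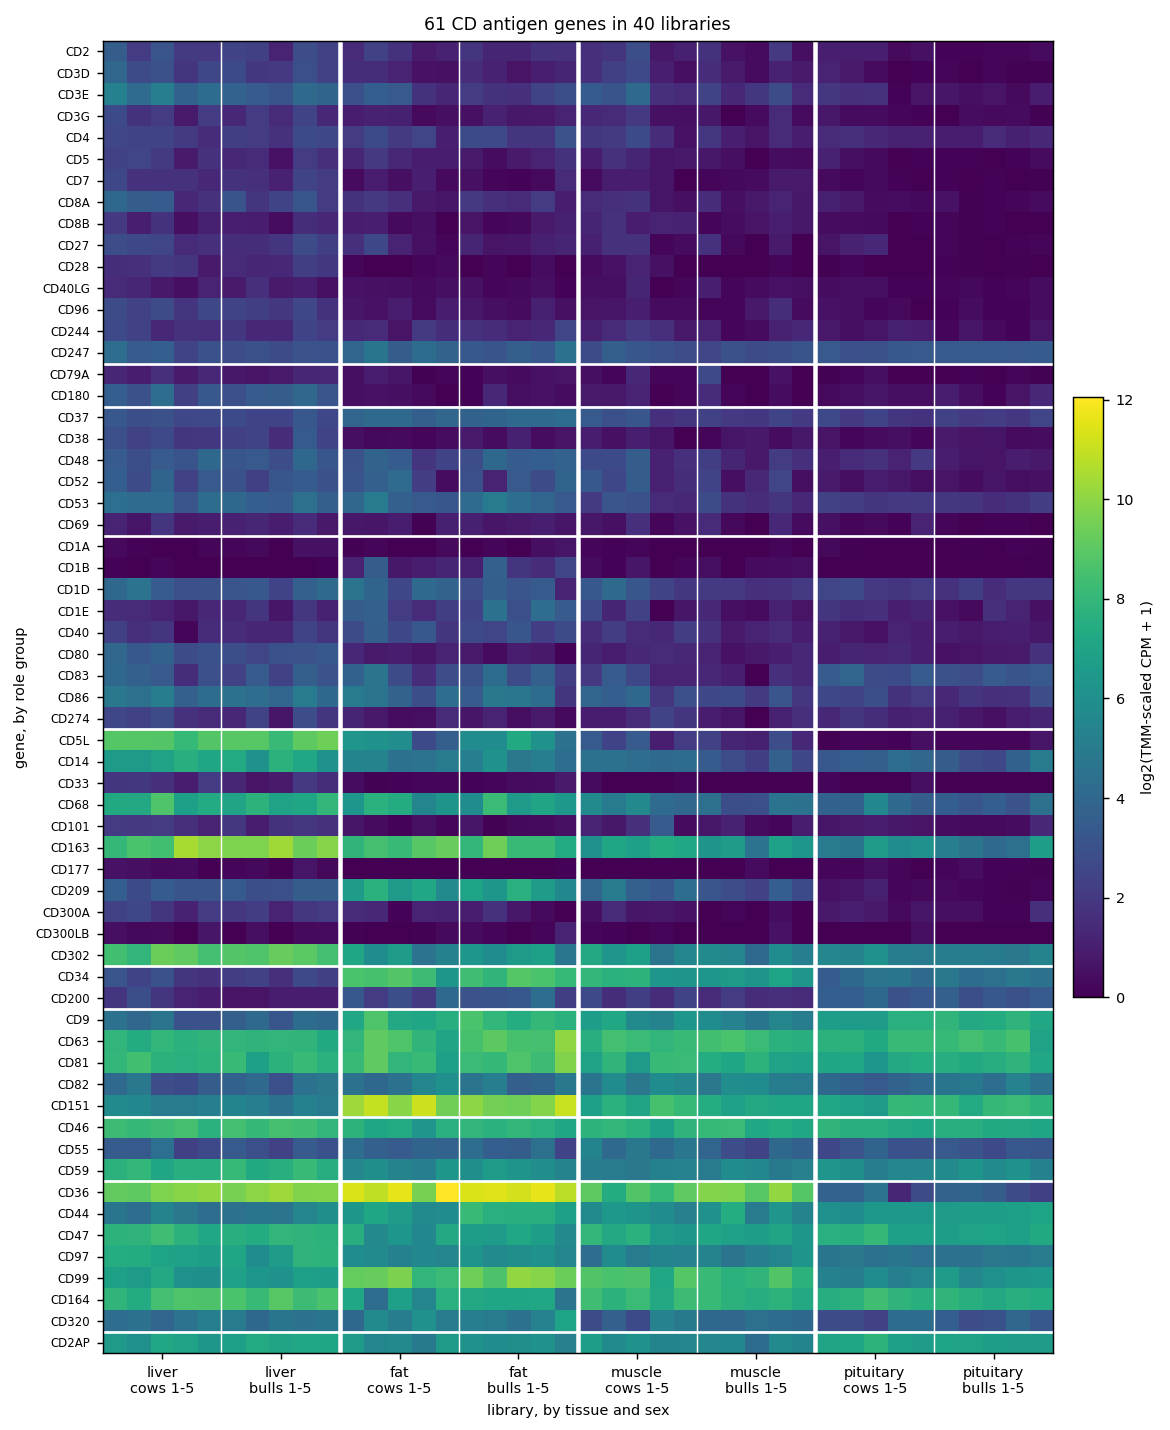
Levels of 61 of the 62 CD antigen genes (rows, by role group, split by white lines) in the 40 libraries (columns, by tissue and then cows 1 to 5 and bulls 1 to 5), coloured by log2 of the TMM-scaled CPM plus 1. The rows of the T and NK cell genes at the top are brightest in the liver columns and darkest in the pituitary columns, while CD36, CD99 and CD151 are brightest in the fat columns.

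Across the 4 tissues, the CD antigen genes were highest in liver or fat and lowest in pituitary in most of their calls. A gene was called highest in a tissue when it passed the edgeR quasi-likelihood test, at an adjusted p under 0.05 and in that direction, against each of the other 3 tissues, and lowest likewise. Of the 62 members, 24 were highest in liver (38.7% of the members, against 13.6% of all 13148 genes with a read) and 14 were highest in fat (22.6% against 11.4%). None was highest in muscle (13.0% of all genes) or in pituitary (15.5%), also at an unadjusted p under 0.05 and with DESeq2. In contrast, 25 members were lowest in pituitary (40.3% against 10.3%), 4 in liver (6.45% against 13.8%), 3 in muscle (4.84% against 8.56%) and 1 in fat (1.61% against 7.65%). The test of any difference between tissues passed for 61 of the 62 (98.4%), a share set beside 90.6% of all genes, and CD1A, which presents lipids to T cells, was the exception (adjusted p = 0.0548). In pieces of whole tissue, fewer cells of a type and less RNA per cell cannot be told apart.

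The size of these differences was described by the median over the 62 members beside that of all genes. On the log2 scale, liver exceeded pituitary by a median of 2.31 over the members (all genes -0.12), and fat exceeded pituitary by 1.69 (all genes -0.02). Liver minus muscle had a median of 1.23 (all genes -0.11), fat minus muscle 0.90 (all genes 0.13), muscle minus pituitary 0.77 (all genes -0.03) and liver minus fat 0.71 (all genes -0.13). In the pairwise test of liver against pituitary, 46 members were higher in liver and 5 lower (29.4% and 35.1% of all genes).

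The counts moved with the scale set between tissues. Shares of all genes are not given for the alternatives below, so whether the members' excess over all genes held in them was not tested. With library sizes alone in place of TMM factors, which moved the median of all genes by -0.83 (liver minus pituitary) and -0.92 (muscle minus pituitary) on the log2 scale, 17 members were highest and 6 lowest in liver, 1 was highest and 11 were lowest in pituitary, and 7 were lowest in muscle. The calls lost with library sizes alone were CD2, CD27, CD46, CD47, CD163, CD274 and CD300A as highest in liver. CD5, CD8A, CD27, CD40, CD48, CD69, CD86, CD96, CD97, CD99, CD163, CD244, CD302 and CD320 were lost as lowest in pituitary. CD44 and CD247 were lost as highest in fat, and CD164 as lowest in fat. Added were CD4 and CD53 as highest in fat, CD2AP as highest in pituitary, and CD55 and CD82 as lowest in liver. CD101 was added as lowest in fat, and CD2AP, CD14, CD46 and CD300A as lowest in muscle. Without the fat library of bull 5, 9 members were highest in fat, and CD44, CD63, CD81, CD247 and CD320 were no longer called, while 28 were highest in liver, CD5, CD164 and CD244 among those added. Without both doubted libraries, 27 were highest in liver, 12 in fat (CD81 and CD320 were no longer called), and 23 were lowest in pituitary (CD27 and CD302 were no longer called). Without the liver library labelled bull 3 alone, no member's call of highest or lowest changed.

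Of the 15 T and NK cell genes, 10 were highest in liver, 11 were lowest in pituitary and 1, CD247, was highest in fat. CD3E, a signalling chain of the T cell receptor complex, had 7.89 to 38.8 CPM in liver (median 15.4), 1.57 to 17.1 in muscle (median 3.71), 1.42 to 11.2 in fat (median 3.95) and 0.0780 to 2.78 in pituitary (median 0.597). Every liver library exceeded every pituitary library, while fat and muscle overlapped with each other and with the low end of the livers (muscle against fat, adjusted p = 0.884). Tissues are given here in the order of their fitted levels. The liver level was 3.39-fold over muscle (log2 difference 1.76, SE 0.39, adjusted p = 1.92e-04), and the pituitary level was 5.09-fold below fat (log2 difference 2.35, SE 0.41, adjusted p = 5.93e-06).

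The other CD3 chains had the same order. CD3D had 2.53 to 14.7 CPM in liver (median 5.25), 0.264 to 5.33 in muscle (median 1.10), 0.472 to 1.96 in fat (median 1.24) and 0 to 1.199 in pituitary (median 0.111), with no read in 2 pituitary libraries, and was 3.39-fold over muscle (log2 difference 1.76, SE 0.46, adjusted p = 9.80e-04). CD3G had 0.842 to 5.57 CPM in liver (median 2.78), 0 to 3.05 in muscle (median 0.569), 0.232 to 1.31 in fat (median 0.868) and 0 to 0.694 in pituitary (median 0.247), with no read in 1 muscle and 1 pituitary library, and was 2.83-fold over muscle (log2 difference 1.498, SE 0.46, adjusted p = 0.00417). For both, muscle and fat, the neighbours in the order, did not differ beyond their spread (adjusted p = 0.488 and 0.683). CD2, an adhesion receptor of T and NK cells, had 1.29 to 10.6 CPM in liver (median 3.95), 0.812 to 4.22 in fat (median 2.03), 0.264 to 6.35 in muscle (median 1.63) and 0.0808 to 1.01 in pituitary (median 0.247), and was 2.29-fold over fat (log2 difference 1.196, SE 0.40, adjusted p = 0.00938), a call that was lost with library sizes alone (log2 difference 0.52, adjusted p = 0.290).

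CD247, the zeta chain that the T cell receptor shares with receptors of NK cells, did not follow the other chains. It had 7.70 to 24.5 CPM in fat (median 12.5), 6.71 to 10.4 in pituitary (median 9.44), 4.49 to 18.9 in liver (median 7.21) and 4.69 to 11.7 in muscle (median 6.64). Pituitary libraries held CD247 at a level within the range of the livers, while CD3D there had a median of 0.111 CPM. The difference of CD247 between pituitary and liver did not pass the test (log2 difference 0.11, SE 0.21, adjusted p = 0.676). Fat exceeded pituitary by 1.52-fold (log2 difference 0.61, SE 0.21, adjusted p = 0.0118), a call that was lost without the fat library of bull 5 (log2 difference 0.42, adjusted p = 0.0787) and without cow 2. That fat library held 22.0 CPM where the other bulls' fat held 7.70 to 11.5 CPM. Over all alternatives that adjusted p ran from 0.00802 to 0.0934.

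**Figure D2:**
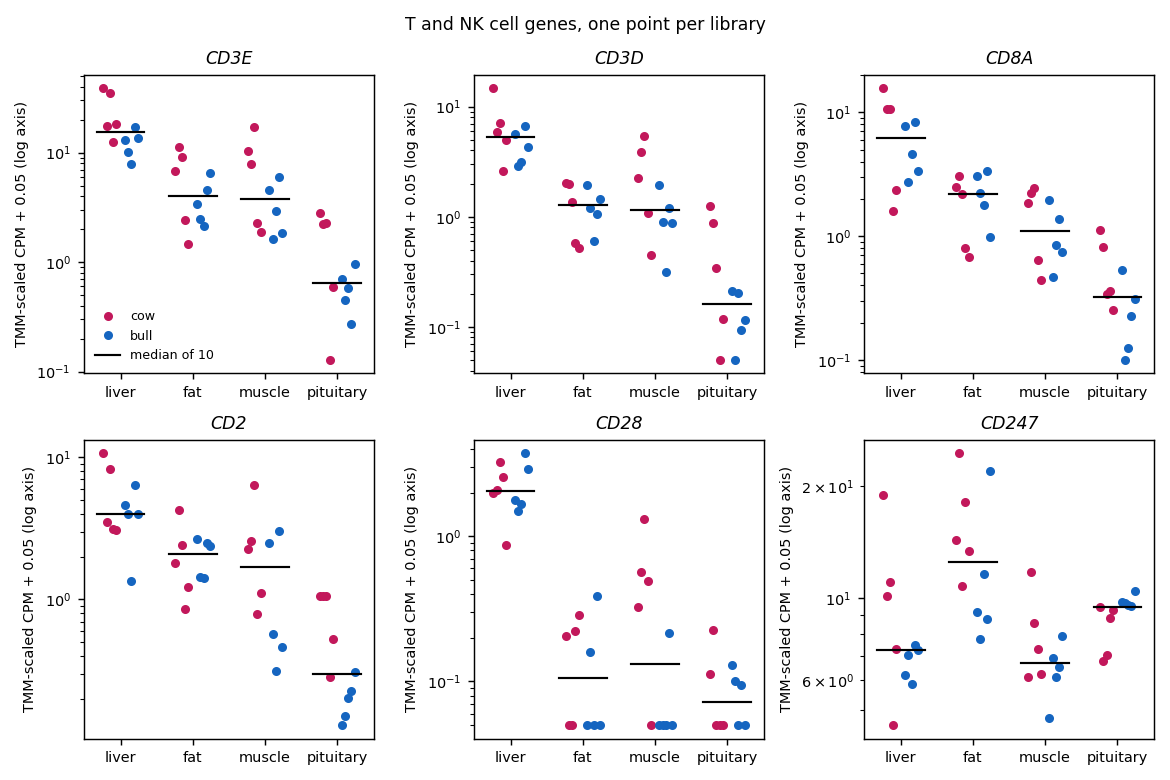
CPM of 6 T and NK cell genes in the 40 libraries (log axis, with 0.05 added so that zeros are drawn; cows and bulls in separate colours, black bars at the median of 10 libraries). The points of CD3E, CD3D, CD8A and CD2 have their highest medians in liver and their lowest in pituitary, while those of CD247 in pituitary lie within the range of the livers.

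Of the coreceptors, CD8A was highest in liver, and CD8B and CD4 were not called highest anywhere with TMM factors. CD8A, a chain of the receptor that marks cytotoxic T cells, had 1.54 to 15.6 CPM in liver (median 6.12), 0.630 to 3.28 in fat (median 2.14), 0.394 to 2.41 in muscle (median 1.06) and 0.0504 to 1.07 in pituitary (median 0.275), and was 3.21-fold over fat (log2 difference 1.68, SE 0.40, adjusted p = 4.04e-04) and, in pituitary, 3.42-fold below muscle (log2 difference 1.77, SE 0.47, adjusted p = 9.21e-04). Its partner CD8B had 0.322 to 2.99 CPM in liver (median 1.06), 0.174 to 2.25 in muscle (median 0.941), 0 to 1.08 in fat (median 0.474) and 0 to 0.316 in pituitary (median 0.0724). Its liver and muscle levels did not differ beyond their spread (adjusted p = 0.289), while pituitary was 4.69-fold below fat (log2 difference 2.23, SE 0.58, adjusted p = 4.13e-04). CD4, which marks helper T cells and is also made by some macrophages, had 1.02 to 7.42 CPM in fat (median 3.97), 1.91 to 5.54 in liver (median 4.04), 0.526 to 5.46 in muscle (median 1.87) and 0.889 to 2.06 in pituitary (median 1.33). Fat and liver gave CD4 levels that did not differ beyond their spread (log2 difference 0.09, SE 0.32, adjusted p = 0.837), and CD4 was called highest or lowest nowhere with TMM factors. With library sizes alone it was called highest in fat.

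CD28, the costimulatory receptor of T cells, had 0.820 to 3.67 CPM in liver (median 1.99), 0 to 1.27 in muscle (median 0.0828), 0 to 0.337 in fat (median 0.0554) and 0 to 0.177 in pituitary (median 0.0220). In fat, muscle and pituitary, 5 of 10 libraries each had no CD28 read and the largest count was 10 reads, so these levels lie near the limit of detection, and the liver level was 8.38-fold over muscle (log2 difference 3.07, SE 0.59, adjusted p = 1.14e-05). CD96, an inhibitory receptor of NK and T cells, had 2.36 to 5.90 CPM in liver and at most 1.99 CPM in the 30 other libraries, and was 6.53-fold over fat (log2 difference 2.71, SE 0.37, adjusted p = 6.59e-08). CD7, CD27 and CD40LG, the ligand by which helper T cells engage CD40, were also highest in liver, by 4.90-, 2.72- and 2.35-fold over the next tissue. The liver call of CD27 was lost without bull 4 (adjusted p = 0.0755) and with library sizes alone (adjusted p = 0.241). CD27 was also called lowest in pituitary (adjusted p = 0.0363 against muscle). That call was lost in 7 alternatives, among them without cow 1, bull 1, bull 2, bull 4 or bull 5. The liver call of CD40LG was lost without bull 2 (adjusted p = 0.0637), and the filter on low counts left that gene out. CD244, a receptor of NK cells, had 1.54 to 5.33 CPM in liver (median 2.55), 0.574 to 4.71 in fat (median 1.79), 0.105 to 3.05 in muscle (median 1.19) and 0.0881 to 1.09 in pituitary (median 0.583), and liver did not differ from fat beyond the spread (adjusted p = 0.272). Without the fat library of bull 5, which held 4.71 CPM where the other bulls' fat held at most 2.26 CPM, CD244 was called highest in liver (log2 difference 0.84, adjusted p = 0.0427). CD5, a dampener of T cell receptor signals, was likewise not called highest (liver against fat, adjusted p = 0.0843) and was lowest in pituitary. It was called highest in liver without the fat library of bull 5 (log2 difference 1.22, adjusted p = 0.0130), without both doubted libraries (adjusted p = 0.0177), without bull 5, with the animal as a block and with DESeq2.

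A list of 9 genes of T and NK cells whose names do not begin with CD was measured beside them, with no test of the list. Of these, 6 (LCK, ZAP70, GZMA, PRF1, NCR1 and KLRB1) were highest in liver and 1 (TBX21) was lowest in pituitary, and GZMB had no read in liver, fat or pituitary. Their summed level had a median of 34.5 CPM in liver (16.9 to 96.8), 15.9 in fat (9.05 to 49.9), 6.06 in muscle (3.36 to 16.3) and 7.10 in pituitary (4.44 to 12.4). CD2 and the CD3D, CD3E and CD3G chains summed to medians of 27.0, 8.54, 6.99 and 1.12 CPM in the same tissues, and in pituitary to 6 to 90 reads a library. ZAP70, a kinase that binds the CD3 and zeta chains, had 0.858 to 7.26 CPM in pituitary, and LCK, another T cell kinase, 1.37 to 2.60 CPM.

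Of the B cell genes, CD180 was highest in liver and CD79A was lowest in pituitary. CD79A, a signalling chain of the B cell receptor, had 0.537 to 2.05 CPM in liver (median 1.19), 0 to 5.38 in muscle (median 0.160), 0.0580 to 0.975 in fat (median 0.400) and 0 to 0.362 in pituitary (median 0.0642). The muscle of bull 1 carried 31 CD79A reads (5.38 CPM), and every other muscle library had at most 1.65 CPM. Liver and muscle did not differ beyond their spread (log2 difference 0.55, adjusted p = 0.449), and without bull 1 CD79A was called highest in liver (log2 difference 1.91 against muscle, adjusted p = 0.00414). Pituitary was lowest for CD79A, 4.27-fold below fat (log2 difference 2.09, SE 0.77, adjusted p = 0.00894).

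CD180, a toll-like receptor relative of B cells and macrophages, had the largest step between its first and second tissue among the 62 members. It had 3.93 to 18.8 CPM in liver (median 9.39), 0 to 1.91 in muscle (median 0.231), 0.0764 to 1.5002 in pituitary (median 0.397) and 0 to 1.495 in fat (median 0.388). The lowest liver exceeded the highest library of every other tissue, and the liver level was 17.9-fold over muscle (log2 difference 4.16, SE 0.51, adjusted p = 3.90e-09). The 7 measured genes of a B and plasma cell list without CD names summed to 97.9 to 319 CPM in liver (median 164) and to 6.48 to 53.7 in pituitary (median 10.9), and 3 of the 7 (BLK, BLNK and IGJ) were highest in liver. MS4A1, the defining surface gene of mature B cells, had a median of 1.14 CPM in liver and of 0.0845 CPM in pituitary.

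Of the 6 genes of most leukocytes, CD38 was highest in liver, CD37 was highest in fat, CD48, CD52 and CD69 were lowest in pituitary, and CD53 was called nowhere with TMM factors. With library sizes alone CD53 was called highest in fat. CD53, a tetraspanin found on nearly all leukocytes, had 8.42 to 30.1 CPM in fat (median 14.5), 8.14 to 21.0 in liver (median 16.5), 1.52 to 8.13 in muscle (median 2.53) and 1.91 to 4.04 in pituitary (median 2.89). Fat and liver overlapped and did not differ beyond their spread (adjusted p = 0.682), while liver exceeded pituitary (log2 difference 2.36, SE 0.28, adjusted p = 1.86e-09) and muscle and pituitary did not differ beyond theirs (adjusted p = 0.374). CD48, a ligand of CD244 and CD2, had 6.28 to 16.0 CPM in liver (median 8.87), 2.55 to 16.0 in fat (median 10.4), 0.793 to 10.8 in muscle (median 2.86) and 0.535 to 3.01 in pituitary (median 0.990). Its order of liver and fat turned with single animals and with the scaling, and both tissues exceeded pituitary, where CD48 was 2.80-fold below muscle (log2 difference 1.49, SE 0.36, adjusted p = 4.12e-04).

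CD37, a tetraspanin with high levels on B cells, was highest in fat. It had 11.5 to 18.5 CPM in fat (median 15.4), 4.30 to 8.82 in liver (median 5.38), 2.22 to 9.52 in muscle (median 3.67) and 2.39 to 5.30 in pituitary (median 3.29). The lowest fat library exceeded every library of the other tissues, and fat was 2.53-fold over liver (log2 difference 1.34, SE 0.22, adjusted p = 1.56e-06). CD38, an enzyme that degrades NAD and marks activated lymphocytes and plasma cells, had 1.93 to 9.68 CPM in liver (median 4.26), 0 to 1.02 in muscle (median 0.610), 0.116 to 1.10 in fat (median 0.334) and 0.137 to 0.808 in pituitary (median 0.358), and its liver level was 8.01-fold over muscle (log2 difference 3.002, SE 0.38, adjusted p = 4.84e-09). CD52 and CD69, an early activation antigen, were lowest in pituitary, by adjusted p values of 5.63e-06 and 0.00673 against the next tissue. That of CD69 was lost without cow 3 (adjusted p = 0.0584).

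PTPRC (CD45), the defining gene of leukocytes, was highest in liver, with 61.4 to 223 CPM, against 6.65 to 68.9 CPM in fat, 6.35 to 53.4 CPM in muscle and 4.41 to 20.3 CPM in pituitary, its lowest tissue. The 5 leukocyte genes without CD names (PTPRC, LCP1, CORO1A, LAPTM5 and IL2RG) did not share 1 order. LCP1, an actin-bundling protein, was highest in pituitary (62.6 to 154 CPM), CORO1A was highest in fat, LAPTM5 was called nowhere, and the 5 summed to medians of 356, 272, 109 and 181 CPM in liver, fat, muscle and pituitary.

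Of the 9 genes of antigen presentation and costimulation, 2 were highest in liver, 3 in fat, 2 were lowest in pituitary and 1 in muscle. CD80 and CD86 are the ligands that engage CD28. CD80 had 4.65 to 14.9 CPM in liver (median 7.30), 0.525 to 1.77 in muscle (median 1.30), 0.485 to 2.28 in pituitary (median 0.955) and 0.0773 to 1.65 in fat (median 0.830), so that every liver library exceeded all 30 others, and liver was 6.75-fold over muscle (log2 difference 2.76, SE 0.30, adjusted p = 1.12e-10). CD86 had 11.8 to 33.3 CPM in liver (median 19.8), 2.55 to 30.6 in fat (median 18.7), 2.76 to 15.4 in muscle (median 6.02) and 1.62 to 6.45 in pituitary (median 2.94), with liver and fat not differing beyond their spread (adjusted p = 0.479). CD274 (PD-L1), an inhibitory ligand for T cells, was highest in liver, 2.34-fold over muscle (log2 difference 1.23, SE 0.40, adjusted p = 0.00691).

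Of the CD1 genes, CD1B and CD1E were highest in fat. CD1B had 0.737 to 11.8 CPM in fat (median 1.64), 0 to 0.635 in muscle (median 0.270), 0 to 0.128 in liver (median 0) and 0 to 0.0652 in pituitary (median 0). It had at most 1 read in each liver and pituitary library, and the fat level was 14.5-fold over muscle (log2 difference 3.86, SE 0.58, adjusted p = 9.73e-08), with the highest values in the fat of cow 2 (10.7 CPM) and bull 2 (11.8 CPM). CD1E had 1.80 to 22.2 CPM in fat (median 8.33), 0.644 to 2.73 in liver (median 1.47), 0 to 5.38 in muscle (median 0.908) and 0.252 to 2.59 in pituitary (median 1.30) and was 6.03-fold over liver (log2 difference 2.59, SE 0.48, adjusted p = 1.64e-05), and its liver, muscle and pituitary levels did not differ beyond their spread (adjusted p = 0.954 for liver against muscle and 0.770 for muscle against pituitary). CD1D had 4.35 to 22.9 CPM in liver (median 9.38), 1.24 to 23.9 in fat (median 10.8), 2.12 to 17.2 in muscle (median 3.15) and 1.91 to 5.36 in pituitary (median 2.87), and liver and fat did not differ beyond their spread (adjusted p = 0.747). Reads with several matches were not counted, so reads that these related genes share are missing from their levels.

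CD40, the receptor through which T cells license antigen-presenting cells, was highest in fat, 2.68-fold over liver (log2 difference 1.42, SE 0.31, adjusted p = 1.07e-04). CD83, a marker of mature dendritic cells, had 1.86 to 23.6 CPM in fat (median 6.60), 5.54 to 14.5 in pituitary (median 8.59), 1.97 to 15.4 in liver (median 8.36) and 0 to 9.94 in muscle (median 1.54). Muscle was the lowest tissue for CD83, 3.16-fold below liver (log2 difference 1.66, SE 0.42, adjusted p = 7.39e-04), and the other 3 tissues overlapped.

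The 11 genes of cells of myeloid origin were mostly highest in liver: 6 were called there, CD209 was called in fat, and 4 were lowest in pituitary. CD5L, a scavenger receptor relative secreted by tissue macrophages, had 265 to 672 CPM in liver (median 465), 5.63 to 158 in fat (median 57.5), 1.03 to 10.2 in muscle (median 3.73) and 0.0631 to 0.587 in pituitary (median 0.148). No tissue overlapped with liver or with pituitary. The liver level was 7.77-fold over fat (log2 difference 2.96, SE 0.38, adjusted p = 2.68e-08), fat exceeded muscle (log2 difference 3.73, SE 0.40, adjusted p = 8.40e-10), and pituitary was 21.1-fold below muscle (log2 difference 4.40, SE 0.56, adjusted p = 9.77e-10). The pituitary libraries held 1 to 9 CD5L reads each.

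CD163, the haemoglobin scavenger receptor of macrophages, had 262 to 1434 CPM in liver (median 836), 162 to 678 in fat (median 287), 23.0 to 167 in muscle (median 104) and 16.3 to 102 in pituitary (median 32.95). Liver and fat overlapped, and the livers of cows 1 to 3 held 262, 402 and 336 CPM while the 7 other livers held 643 to 1434 CPM. The liver level was 2.23-fold over fat (log2 difference 1.16, SE 0.33, adjusted p = 0.00266), and pituitary was 2.17-fold below muscle (log2 difference 1.12, SE 0.33, adjusted p = 0.00350). With library sizes alone both calls were lost (log2 difference 0.38, adjusted p = 0.305 for liver against fat, and log2 difference 0.14, adjusted p = 0.730 for muscle against pituitary). CD14 had 71.8 to 213 CPM in liver (median 130.03), 19.3 to 69.3 in fat (median 33.05), 3.70 to 22.7 in muscle (median 14.2) and 5.19 to 31.0 in pituitary (median 11.4), with every liver above all other libraries. Liver was 3.72-fold over fat (log2 difference 1.89, SE 0.29, adjusted p = 5.69e-07), and muscle and pituitary, its lowest tissues, overlapped (log2 difference 0.00, SE 0.30).

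CD68, a protein of lysosomes that is used to stain macrophages, had 112 to 423 CPM in liver (median 157), 44.6 to 298 in fat (median 88.2), 6.40 to 52.0 in muscle (median 21.2) and 7.40 to 48.4 in pituitary (median 11.7). Liver and fat did not differ beyond their spread (adjusted p = 0.146), while fat exceeded muscle (log2 difference 2.44, SE 0.34, adjusted p = 2.28e-07). Without bull 2 CD68 was called highest in liver (log2 difference 0.82, adjusted p = 0.0277), and without cow 3 lowest in pituitary (log2 difference 0.80, adjusted p = 0.0324). CD302, a C-type lectin receptor, had 245 to 646 CPM in liver (median 441), 22.7 to 136 in fat (median 68.0), 16.4 to 152 in muscle (median 49.0) and 26.6 to 64.8 in pituitary (median 32.97), again with every liver above every other library, and was 6.27-fold over fat (log2 difference 2.65, SE 0.29, adjusted p = 7.26e-10). Its call as lowest in pituitary (adjusted p = 0.0425 against muscle) was lost in 13 alternatives, among them the animal as a block, DESeq2 and every animal left out except cow 4 and bull 3. CD33, a sialic acid-binding receptor, had 0.537 to 3.42 CPM in liver (median 2.02), 0.0650 to 0.850 in fat (median 0.137), 0 to 0.342 in pituitary (median 0) and 0 to 0.276 in muscle (median 0), with no read in 8 muscle and 8 pituitary libraries, and its liver level was 7.77-fold over fat (log2 difference 2.96, SE 0.52, adjusted p = 4.87e-06).

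CD209 (DC-SIGN), a lectin of dendritic cells and macrophages, had the opposite peak, in fat. It had 49.1 to 206 CPM in fat (median 99.0), 4.23 to 28.9 in muscle (median 9.92), 5.61 to 11.1 in liver (median 8.79) and 0.0441 to 1.09 in pituitary (median 0.181). All fat libraries exceeded all others and all pituitary libraries were below all others. Fat was 10.4-fold over muscle (log2 difference 3.38, SE 0.29, adjusted p = 3.14e-12), muscle and liver did not differ beyond their spread (adjusted p = 0.344), and pituitary was 29.0-fold below liver (log2 difference 4.86, SE 0.38, adjusted p = 4.55e-15).

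**Figure D3:**
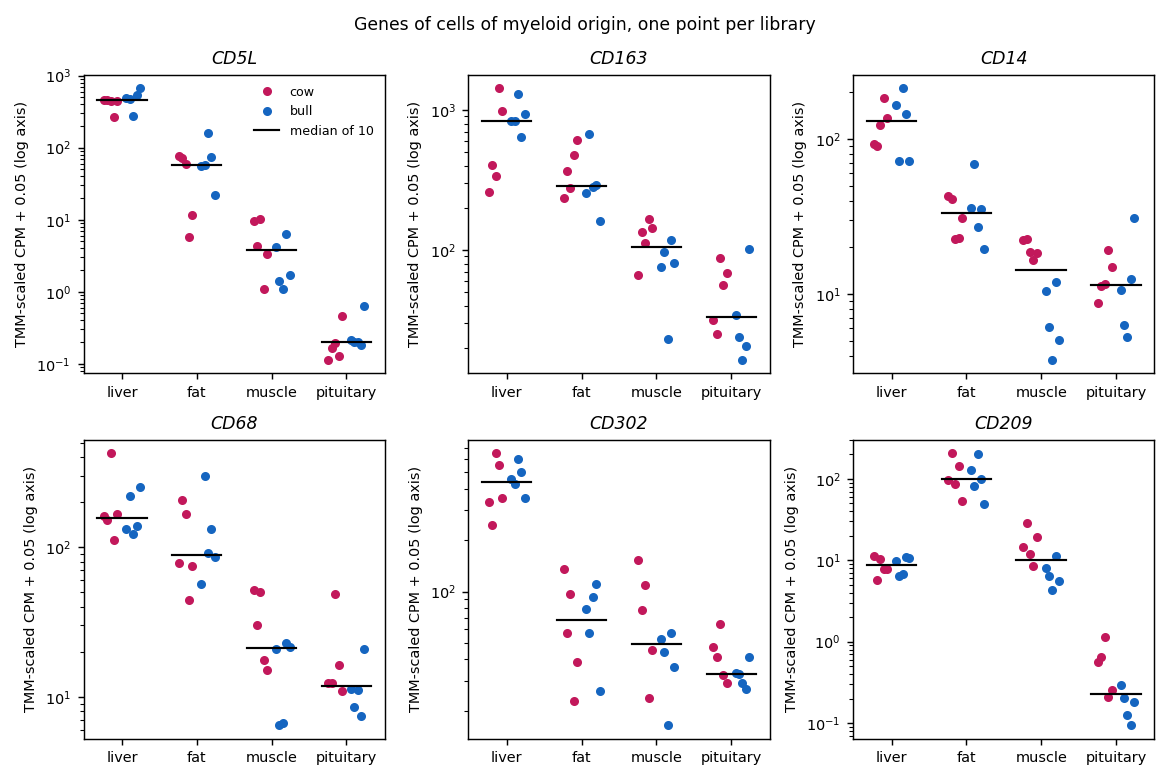
CPM of 6 genes of cells of myeloid origin in the 40 libraries (log axis, with 0.05 added; cows and bulls in separate colours, black bars at the median of 10 libraries). CD5L, CD14 and CD302 are highest in every liver library, CD209 is highest in every fat library, and CD68 overlaps between liver and fat.

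The remaining members of this group were near the limit of counting in some tissues. CD101, an inhibitory receptor of myeloid and T cells, had 0.895 to 3.47 CPM in liver (median 2.57), 0.166 to 10.05 in muscle (median 0.831), 0.229 to 1.5002 in pituitary (median 0.589) and 0.0554 to 0.669 in fat (median 0.256), where the muscle of cow 4 carried 10.05 CPM and the other muscles at most 2.16 CPM, and it was called highest or lowest nowhere. Without cow 4 it was called highest in liver, with the log2 difference over muscle at 1.52 (adjusted p = 0.00194) in place of 0.62 (0.255), and likewise with the animal as a block (log2 difference 0.99, adjusted p = 0.0459). CD300A was highest in liver, 2.96-fold over fat (log2 difference 1.57, SE 0.51, adjusted p = 0.00721). CD177, a surface antigen of neutrophils, had at most 8 reads in any library and CD300LB at most 17, and neither was called. Granulocyte genes without CD names were measured beside them, and the 6 measured genes summed to medians of 25.2, 46.4, 5.57 and 2.86 CPM in liver, fat, muscle and pituitary. Of these, S100A8 and S100A9 were highest in fat, with 3.60 to 413 CPM of S100A9, and MPO and CXCR2 in liver, with 0.322 to 3.59 CPM of MPO.

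The 9 measured macrophage genes without CD names summed to a median of 1404 CPM in liver (709 to 1766), 851 in fat (233 to 1863), 184 in muscle (79.9 to 427) and 161 in pituitary (114 to 211). The complement genes C1QB and C1QC were highest in liver, VSIG4 and TYROBP in fat, and the receptor gene CSF1R overlapped between liver (97.6 to 253 CPM) and fat (75.2 to 402 CPM). None of the 9 was at 0 in any tissue. The part that cell numbers have in the levels of the CD genes was not tested.

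CD34, a sialomucin of vessel endothelium and stromal precursors, was highest in fat and lowest in liver. It had 82.2 to 469 CPM in fat (median 353), 74.8 to 256 in muscle (median 87.5), 10.5 to 27.6 in pituitary (median 21.7) and 2.09 to 8.08 in liver (median 3.99). Every liver library was below every other library. Fat was 2.63-fold over muscle (log2 difference 1.40, SE 0.26, adjusted p = 1.88e-05), muscle exceeded pituitary (log2 difference 2.59, SE 0.26, adjusted p = 7.57e-11), and liver was 4.81-fold below pituitary (log2 difference 2.27, SE 0.27, adjusted p = 2.86e-09). The 7 endothelial genes measured beside it summed to 1245 to 2504 CPM in fat, 673 to 1521 in liver, 624 to 1010.4 in muscle and 166 to 303 in pituitary. Of these, PECAM1 and VWF were highest in fat, and STAB2, LYVE1 and KDR, which sinusoidal endothelium of the liver expresses, were highest in liver, STAB2 with 119 to 429 CPM there and at most 0.887 CPM elsewhere. CD200, an inhibitory ligand of endothelium and neurons, had 6.505 to 15.9 CPM in pituitary (median 9.57), 3.08 to 19.2 in fat (median 7.56), 1.74 to 5.38 in muscle (median 2.07) and 0.537 to 6.53 in liver (median 0.962), and pituitary and fat did not differ beyond their spread (adjusted p = 0.673).

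Among the 5 tetraspanins outside the leukocyte group, CD63, CD81 and CD151 were highest in fat and CD9 and CD151 were lowest in liver. CD151, a partner of laminin-binding integrins, had 682 to 2264 CPM in fat (median 1001), 88.9 to 299 in pituitary (median 238), 113 to 376 in muscle (median 146) and 21.6 to 52.3 in liver (median 35.5). Fat stood above and liver below all other libraries. The fat level was 6.02-fold over pituitary (log2 difference 2.59, SE 0.25, adjusted p = 1.99e-11), and liver was 4.90-fold below muscle (log2 difference 2.29, SE 0.25, adjusted p = 2.96e-10). CD9 had 141 to 427 CPM in fat (median 199.98), 97.6 to 232 in pituitary (median 162), 25.1 to 151 in muscle (median 47.5) and 6.97 to 23.6 in liver (median 15.5), with every liver below every other library. Liver was 4.22-fold below muscle (log2 difference 2.08, SE 0.28, adjusted p = 3.28e-08), and fat and pituitary did not differ beyond their spread (adjusted p = 0.0878).

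CD63, a protein of late endosomes and secretory granules, had 132 to 1047 CPM in fat (median 375), 188 to 396 in muscle (median 290.2), 121 to 369.6 in pituitary (median 276) and 158 to 254 in liver (median 235). CD81, a tetraspanin that most cells carry, had 110.5 to 871 CPM in fat (median 293), 114 to 336 in liver (median 219), 90.8 to 294 in muscle (median 157) and 78.9 to 231 in pituitary (median 157). Fat exceeded the second tissue by 1.49-fold for CD63 (adjusted p = 0.0266) and 1.55-fold for CD81 (adjusted p = 0.0256), and both highest values were in the fat of bull 5. Without that library alone neither was called (adjusted p = 0.120 for CD63 and 0.253 for CD81), and without both doubted libraries CD63 was called and CD81 was not (0.0268 and 0.121). CD63 was also lost without cow 2 or bull 4, and CD81 without bull 3. Over all alternatives the adjusted p ran from 6.77e-07 to 0.120 for CD63 and from 4.37e-06 to 0.253 for CD81.

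CD46, CD55 and CD59 shield host cells from complement. CD59, which blocks the membrane attack complex, had 137 to 283 CPM in liver (median 189), 36.1 to 98.3 in fat (median 60.9), 34.0 to 77.1 in pituitary (median 53.2) and 26.5 to 56.8 in muscle (median 35.4). Every liver exceeded every other library. Liver was 3.40-fold over fat (log2 difference 1.77, SE 0.18, adjusted p = 2.73e-11), and muscle was lowest, 1.503-fold below pituitary (log2 difference 0.59, SE 0.18, adjusted p = 0.00412). CD46 was also highest in liver, 1.46-fold over muscle (log2 difference 0.55, SE 0.18, adjusted p = 0.00735), whereas CD55 had its highest median in muscle and was called nowhere with TMM factors (muscle against fat, adjusted p = 0.311).

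CD36, the fatty acid transporter that is also a scavenger receptor of macrophages, was highest in fat. It had 773 to 4253 CPM in fat (median 2639.6), 535 to 1268 in liver (median 887), 172 to 1108 in muscle (median 509) and 1.48 to 22.8 in pituitary (median 11.8). Every pituitary library was below every other library, 53.9-fold below muscle (log2 difference 5.75, SE 0.32, adjusted p = 6.30e-17). The fat level was 2.91-fold over liver (log2 difference 1.54, SE 0.32, adjusted p = 6.04e-05), and it overlapped with liver, since the fat of cow 4 held 773 CPM where the other fats held 1773 to 4253 CPM. Liver and muscle did not differ beyond their spread (adjusted p = 0.0787).

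The other genes of adhesion and transport split between tissues. CD44, the hyaluronan receptor, was highest in fat, with 53.8 to 286 CPM in fat (median 128), 56.5 to 124 in pituitary (median 90.1), 30.9 to 176 in muscle (median 61.8) and 19.7 to 63.2 in liver (median 24.7), at an adjusted p of 0.0457 against pituitary. That call was lost with the animal as a block, with DESeq2, without the fat library of bull 5 and without any of cow 1, cow 2 and bulls 1 to 4. CD99 and CD320, the receptor for transcobalamin, were also highest in fat, by 1.90- and 1.91-fold over the next tissue (adjusted p = 0.00128 and 0.0106). The fat call of CD320 was lost without the fat library of bull 5. CD320 was also called lowest in pituitary (adjusted p = 0.0292 against muscle), a call lost in 6 alternatives, RLE factors among them. CD47, the ligand that restrains phagocytosis, and CD97, an adhesion receptor of leukocytes, were highest in liver by 1.47- and 2.66-fold. The call of CD47 was lost with library sizes alone and without bull 1, bull 3 or bull 4.

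CD164, a sialomucin found on many cell types, was the only member called lowest in fat. It had 167 to 484 CPM in liver (median 367), 152 to 323 in muscle (median 219), 155 to 325 in pituitary (median 194) and 18.6 to 201 in fat (median 138), and the fat level was 1.84-fold below pituitary (log2 difference 0.88, SE 0.28, adjusted p = 0.00527). The lowest values were 18.6 CPM in the fat of cow 2 and 23.6 CPM in the fat of bull 5. CD164 was not called highest in liver (liver against muscle, adjusted p = 0.0780), but it was so called without the fat library of bull 5 (log2 difference 0.66, adjusted p = 0.0202), without cow 2 (adjusted p = 0.0280), with RLE factors and with DESeq2. With library sizes alone it was no longer lowest in fat. CD2AP, an adaptor that binds CD2 and holds the filtration slit of the kidney but is not a surface antigen, had 96.0 to 222 CPM in pituitary (median 116), 65.8 to 162 in liver (median 127), 28.4 to 95.2 in fat (median 59.1) and 17.98 to 104 in muscle (median 47.6), with pituitary and liver not differing beyond their spread (adjusted p = 0.860).

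**Figure D4:**
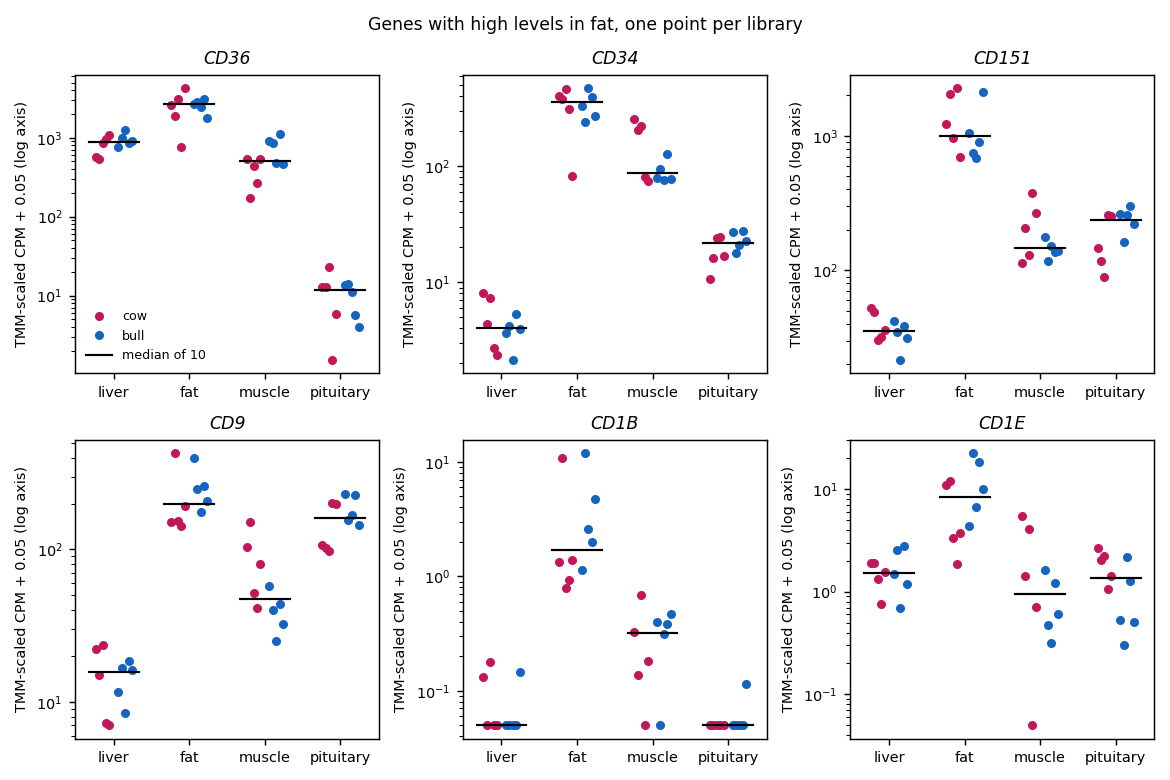
CPM of 6 CD antigen genes with high levels in fat in the 40 libraries (log axis, with 0.05 added; cows and bulls in separate colours, black bars at the median of 10 libraries). CD151 and CD1B are highest in every fat library, CD34, CD151 and CD9 are lowest in every liver library, and CD36 is lowest in every pituitary library.

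Blood, lymph node and other cells that a piece of tissue can carry were read by their own genes. The red cell genes HBB, HBA and ALAS2 summed to at most 10.9 CPM in liver and at most 0.787 CPM elsewhere, with HBB at no read in all fat and all muscle libraries. HBB and HBA had a median of 0 CPM in every tissue, and reads with several matches were not counted for these genes either. Whether the counts of these genes measure the blood in a piece was not tested. The platelet genes PF4 and ITGA2B summed to medians of 13.9, 19.5, 7.99 and 10.3 CPM in liver, fat, muscle and pituitary. The lymph node chemokine genes CXCL13, CCL21 and CCL19 summed to 1.42 to 112 CPM in fat and at most 28.3 CPM elsewhere, and CXCL13 stayed at or under 10.9 CPM. MSLN and UPK3B, genes of mesothelium, summed to at most 31.2 CPM, the mural cell genes to medians of 147, 626, 565 and 159.9 CPM in the order liver, fat, muscle, pituitary, and S100B with ALDH1A1, genes of pituitary folliculostellate cells, to a median of 347 CPM in pituitary and 1824 in liver. In muscle, the fat cell genes PLIN1 and LEP summed to 11.9 to 308 CPM against 1856 to 3591 CPM in fat. The part of any of these cells in the tissue differences of the CD genes was not tested.

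Few CD antigen genes differed between cows and bulls, and none did so under every test. The study's test within a tissue was the edgeR likelihood ratio test (LRT) of sex. It called 0 of 62 members in liver (0.175% of all genes), 0 in fat (0.114%), 1 in muscle (1.61% of the members against 0.517%) and 3 in pituitary (4.84% against 0.745%). With the edgeR quasi-likelihood test, which is the more conservative at 5 against 5, no member was called in any of the 4 tissues (0.00761%, 0.0228%, 0.0532% and 0.0913% of all genes in liver, fat, muscle and pituitary). DESeq2 called 0, 0, 1 and 2 members in the same order, with the shares of all genes not given here. At an unadjusted LRT p under 0.05 there were 2 members for liver, 3 for fat, 19 for muscle and 16 for pituitary, which is 3.23%, 4.84%, 30.6% and 25.8% of the members beside 7.45%, 6.88%, 11% and 9.27% of all genes. Of the 19 in muscle 18 were higher in cows, as were 13 of the 16 in pituitary, and the median log2 difference, male minus female, over all 62 was -0.70 in muscle (all genes -0.04) and -0.34 in pituitary (all genes 0).

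In muscle, CD14 was higher in cows. It had 22.2, 22.7, 18.7, 16.4 and 18.3 CPM in cows 1 to 5, against 10.4, 6.09, 3.70, 11.9 and 4.97 CPM in bulls 1 to 5. The sexes did not overlap. The means were 19.6 ± 2.69 CPM and 7.42 ± 3.57 CPM (SD, n = 5), 2.63-fold higher in cows (log2 male minus female -1.40, SE 0.34, LRT adjusted p = 0.0233). The quasi-likelihood test gave an adjusted p of 0.244, and over all alternatives the adjusted p ran from 0.00342 to 0.244. The call was lost without any of cow 1, cow 2, cow 3, bull 2, bull 3 or bull 5, and without cow 4 the muscle count rose from 1 to 10 members, without cow 5 to 4 and without bull 4 to 2. The shares of all genes called in these fits are not given here, so a rise in the count is no result about the members.

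The next members by p in muscle were CD300A and CD1D. CD300A, an inhibitory receptor of myeloid cells, had 0.414, 1.73, 0.635, 0.739 and 0.526 CPM in cows 1 to 5 and 0, 0.105, 0, 0.331 and 0 CPM in bulls 1 to 5, values that did not overlap and that rest on at most 20 reads (LRT adjusted p = 0.0549). CD1D had 9.10, 17.2, 8.25, 4.58 and 2.89 CPM in cows 1 to 5 and 3.13, 3.04, 2.12, 2.32 and 3.18 CPM in bulls 1 to 5 (LRT adjusted p = 0.0727). For the macrophage genes without CD names, the sum in muscle was 116 to 427 CPM (median 248) in cows and 79.9 to 222 CPM (median 105) in bulls, and the 5 general leukocyte genes summed to 64.4 to 288 CPM (median 173) and 41.5 to 139.6 CPM (median 69.9). Their part in the sex difference was not tested.

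In pituitary, 3 members were called. CD82, a tetraspanin that restrains cell migration, had 15.1, 12.4, 9.71, 13.2 and 16.1 CPM in cows 1 to 5 and 24.9, 28.5, 19.7, 39.0 and 21.8 CPM in bulls 1 to 5, and every bull exceeded every cow. It was 2.01-fold higher in bulls (log2 male minus female 1.01, SE 0.24, LRT adjusted p = 0.00815), and the quasi-likelihood adjusted p was 0.143. CD99, an adhesion molecule of leukocyte passage through vessel walls, had 38.0, 33.2, 54.4, 36.0 and 44.1 CPM in cows 1 to 5 and 100.3, 46.1, 64.7, 82.0 and 83.8 CPM in bulls 1 to 5, with bull 2 below cow 3. It was 1.83-fold higher in bulls (log2 male minus female 0.87, SE 0.23, LRT adjusted p = 0.0274).

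CD2 was higher in the pituitary of cows, on few reads. It had 1.01, 1.001, 1.01, 0.234 and 0.479 CPM in cows 1 to 5 and 0.0808, 0.101, 0.153, 0.176 and 0.261 CPM in bulls 1 to 5, so that cows 1 to 3 stood apart and cow 4 fell within the bulls. It was 4.64-fold higher in cows (log2 male minus female -2.21, SE 0.60, LRT adjusted p = 0.0196), and DESeq2 did not call it (adjusted p = 0.0599). Over all alternatives the adjusted p ran from 0.00296 to 0.205 for CD2, from 0.00341 to 0.143 for CD82 and from 7.72e-04 to 0.206 for CD99. All 3 calls were lost without cow 2 and without bull 4, and 1 call, CD82, was left without cow 1 and without bull 1. CD2 was also lost without cow 3, bull 2 or bull 3, and CD99 without cow 4 or bull 5. The filter on low counts left CD2 out, so it was not tested there.

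The marker sums had higher medians in the pituitary of cows than of bulls. The 5 general leukocyte genes summed to 152 to 269.97 CPM (median 223) in cows and 126 to 185 CPM (median 159) in bulls, the macrophage genes to 149 to 211 CPM (median 192) and 114 to 199 CPM (median 147), and the T and NK cell genes without CD names to 4.44 to 12.4 CPM (median 10.1) and 5.38 to 8.02 CPM (median 6.95). The sexes overlapped for all 3 sums. The share of uniquely aligned reads outside genes averaged 42.5% in cows and 39.0% in bulls for liver, 41.5% in cows and 38.0% in bulls for fat, 43.7% in cows and 40.6% in bulls for muscle and 44.5% in cows and 38.3% in bulls for pituitary. The part of these cells and of that share in the sex differences was not tested.

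Liver and fat gave no call. The liver library labelled bull 3 and the fat library of bull 5 entered these tests, and the bulls' means, as male. Leaving out bull 3 in the liver test or bull 5 in the fat test also gave 0 members. The smallest adjusted p in liver was that of CD200 (2.67, 6.53, 2.56, 1.26 and 0.957 CPM in cows 1 to 5 and 0.572, 0.537, 0.967, 0.936 and 0.944 CPM in bulls 1 to 5, LRT adjusted p = 0.181), which passed when cow 4 or cow 5 was left out. CD3E in liver had means of 24.4 ± 11.7 CPM in cows and 12.3 ± 3.53 CPM in bulls (SD, n = 5; LRT adjusted p = 0.319), and CD247 had 10.4 ± 5.42 CPM and 6.70 ± 0.694 CPM (adjusted p = 0.801). In fat, CD44 had 81.2, 141, 99.5, 53.8 and 55.5 CPM in cows 1 to 5 and 286, 198, 187, 192 and 115 CPM in bulls 1 to 5 (adjusted p = 0.335), and CD38 and CD300LB followed at adjusted p values of 0.692 and 0.691.

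Over all 4 tissues, with tissue as a term, the LRT called 3 members (4.84% against 1.69% of all genes). CD3E was 2.14-fold higher in cows (log2 male minus female -1.10, SE 0.28, LRT adjusted p = 0.0197), and CD1D was 1.77-fold higher in cows (log2 male minus female -0.82, SE 0.23, LRT adjusted p = 0.0359). CD44 was 1.54-fold higher in bulls (log2 male minus female 0.62, SE 0.18, LRT adjusted p = 0.0359). This fit treats the 4 libraries of an animal as independent. With the animal as a block in voom and limma no member was called (0.0608% of all genes), and none with the quasi-likelihood test (0.586%), whose adjusted p values were 0.0585 for CD3E, 0.0734 for CD1D and 0.0715 for CD44. At an unadjusted p under 0.05 the quasi-likelihood test had 14 members (22.6%, beside 15.8% of all genes).

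The liver library labelled bull 3 entered as male in this fit. Without it, CD1D was no longer called (adjusted p = 0.0543) and 2 members were, without the fat library of bull 5 the count was 4, and without both it was 3. Over all alternatives the adjusted p of CD1D ran from 0.00948 to 0.408, that of CD3E from 1.69e-04 to 0.451 and that of CD44 from 0.0208 to 0.322. Single animals decided the count: it was 0 without cow 1, cow 2, bull 1 or bull 2, 1 without bull 3 or bull 4, 2 without cow 3, 5 without bull 5 and 7 without cow 4 or cow 5. Shares of all genes called in these fits are not given here.

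The T cell genes varied from cow to cow. CD2, CD3D, CD3E and CD3G summed in cows 1 to 5 to 69.7, 29.3, 53.8, 18.8 and 29.5 CPM in liver, 11.4, 18.5, 13.9, 3.95 and 3.46 in fat, 16.1, 15.9, 31.9, 4.43 and 3.68 in muscle and 5.68, 4.30, 3.84, 0.468 and 1.16 in pituitary. Bulls 1 to 5 had 24.7, 20.05, 14.0, 34.6 and 23.5 CPM in liver, 8.32, 6.15, 4.76, 8.75 and 11.4 in fat, 9.55, 2.94, 3.70, 11.9 and 3.32 in muscle and 0.889, 0.807, 1.07, 0.705 and 1.30 in pituitary. Cow 4 was below cows 1 to 3 in every tissue, and cow 5 was so in fat, muscle and pituitary. The kinases LCK and ZAP70 summed in pituitary to 9.34, 6.95, 6.74, 2.65 and 3.83 CPM in cows 1 to 5 and to 4.45, 4.34, 5.19, 3.44 and 6.07 CPM in bulls 1 to 5. The share of uniquely aligned reads outside genes in cows 1 to 5 was 53.3%, 42.3%, 48.1%, 36.6% and 38.0% in muscle and 49.4%, 46.7%, 52.1%, 38.9% and 35.3% in pituitary, with cows 4 and 5 again below cows 1 to 3. In liver it was 42.3%, 40.4%, 54.0%, 41.1% and 34.7% and in fat 42.7%, 39.4%, 46.9%, 37.1% and 41.2%, where the cows did not part in this way. Its part in the levels was not tested.

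No member's sex difference was called to differ between tissues by the LRT of the interaction of sex and tissue (0 of 62, beside 0.335% of all genes), and neither the quasi-likelihood test nor DESeq2 called any. At an unadjusted p under 0.05 the LRT had 12 members (19.4%, beside 8.58% of all genes), the quasi-likelihood test 10 (7.01% of all genes) and DESeq2 11 (8.06%). The smallest adjusted p values were 0.167 for CD33, 0.198 for CD209 and 0.266 for CD48. For CD14 in muscle and for CD2, CD82 and CD99 in pituitary, a difference from the other tissues was thus not shown.

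**Figure D5:**
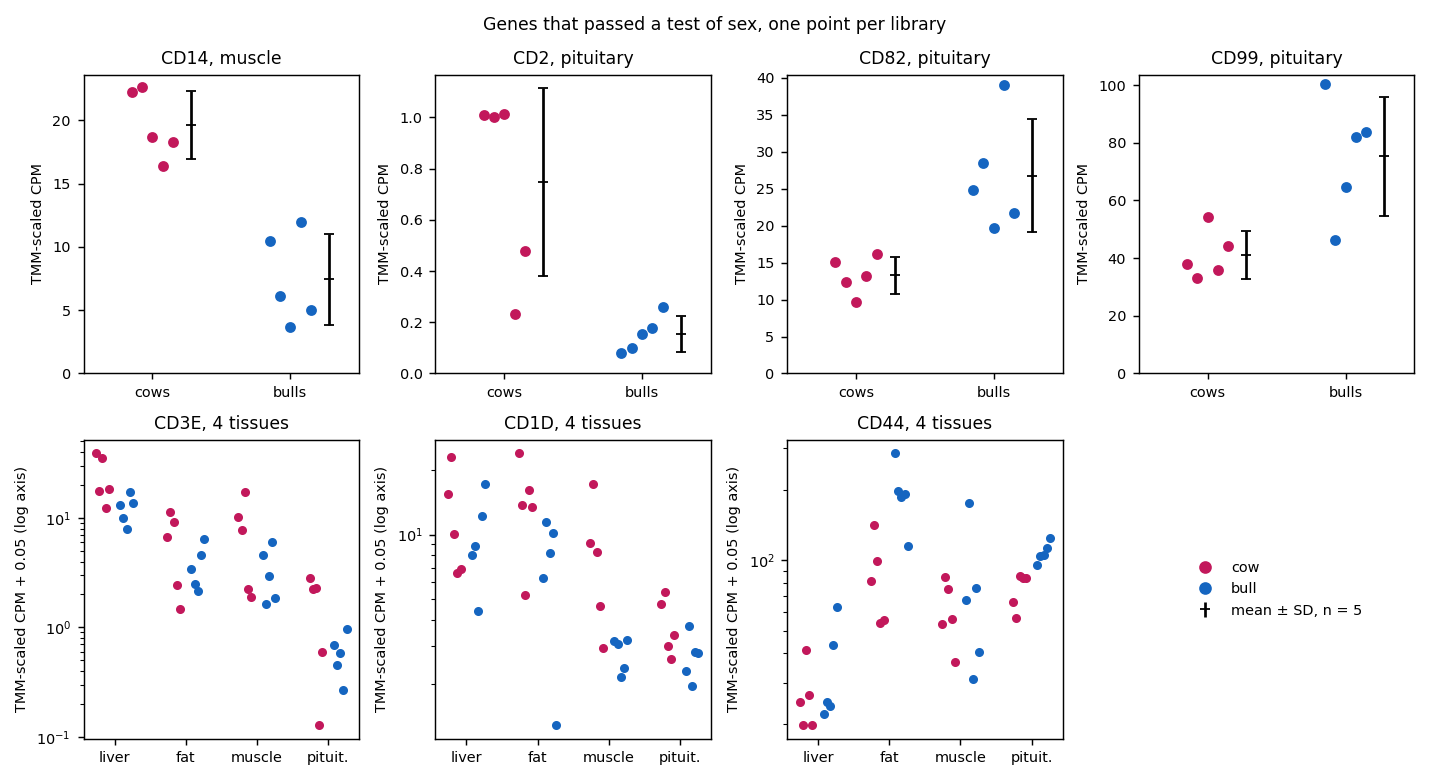
CPM of the 7 CD antigen genes that passed an LRT of sex. The upper row shows CD14 in muscle and CD2, CD82 and CD99 in pituitary by sex (linear axis from 0, black marks at the mean with SD, n = 5), and the lower row shows CD3E, CD1D and CD44 in all 4 tissues (log axis, 0.05 added). The sexes do not overlap for CD14 in muscle and CD82 in pituitary, and they overlap in at least 1 tissue for each gene of the lower row.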

How the data were processed

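Total RNA of the 40 tissue pieces was isolated with TRIzol and made into TruSeq poly-A libraries that were read as pairs on a HiSeq. The authors used Trimmomatic to remove adapters and Bowtie2 within TopHat2 to align the reads to bosTau7, the cattle build of UCSC, then handled the alignments with SAMtools and counted them per gene with HTSeq. The deposited values are raw counts, 1 table per library, and the counting mode and the strand setting are not given in the sources used here. The authors counted reads with 1 match, and the tables hold reads with several matches in a row of their own, which was not used. Rows that name no gene held 0.114% to 2.69% of the reads that were counted and were left out. The tables hold 13570 genes, and 13148 with at least 1 read in at least 1 library were tested.

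Counts were scaled with TMM factors and analysed in R 4.3.3 with edgeR 4.0.16, limma 3.58.1 and DESeq2 1.42.0, and plots were drawn with matplotlib 3.10.9. Tissues were compared with the edgeR quasi-likelihood test with terms for tissue and sex over the 40 libraries. Sex was tested with the edgeR likelihood ratio test, within each tissue, over all tissues with tissue as a term, and as the interaction of both, after the study's own models. A prior count of 0.125 was used for fold changes, and p values were adjusted over all 13148 genes by the Benjamini-Hochberg method and called at 0.05. The scripts were tested on simulated data. Each library is a separate animal within a tissue. The tests of sex within a tissue thus set the difference against an estimate of the spread between animals, as far as the labels hold. The fits over several tissues took the 4 libraries of an animal as independent, except where the animal was a block.

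The members, the role groups, the gene lists and the tests were chosen with earlier results of these data known. Genes were named by a rule: a lineage set, the members with the widest steps among those called for a tissue, every member called for sex or the 3 with the smallest p where fewer were called, and the members with the highest and lowest medians. Other members are named beside their role group. Lists of genes without CD names stood for liver, fat, muscle and pituitary tissue, leukocytes, T and NK cells, B and plasma cells, macrophages, granulocytes, red cells, platelets, endothelium, mesothelium, lymph node stroma, mural cells, folliculostellate cells and fat cells in muscle. Genes of these lists that the tables do not hold were not analysed here. A member of the set and a gene of the T and NK cell list are not reported here by name, and the member stays in the counts over all 62.

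Alternatives were the other edgeR test, DESeq2, RLE factors, library sizes alone, a filter on low counts, the animal as a block, leaving out each animal and leaving out the liver library labelled bull 3. Leaving out the fat library of bull 5, and leaving out both libraries, were chosen after seeing the data. Replicate numbers were taken to pair the tissues of an animal. For the 60 pairs of libraries with the same number and sex, deviations from the group means over 10946 genes were correlated. Their mean correlation was 0.165 (48 positive, 37 over 0.1), and the mean per animal ran from 7.2e-04 (bull 3) to 0.394 (cow 3). The mean of -0.041 over 240 pairs of different animals of the same sex follows from centring each group, so it is no separate reference.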

Additional observations from a re-analysis of the deposited data

Results flagged for a closer look

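Groups of values within a tissue and sex (5 libraries) were checked for a lowest or highest library set apart from the rest. In 41 of 336 groups over 42 named members (12.2%), the gap exceeded Dixon's 95% critical value (0.71 of the group's range). That value holds for normally distributed values, and CPM were not transformed, so the share cannot be set against a chance rate. Of the 41 groups, 18 had their flagged library in bull 5: 9 in its pituitary, all high, 7 in its fat, of which 6 were high, and 2 in its liver. Each value is given with that of the nearest other library of its group, and all are high unless called low.

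In the pituitary of bull 5, CD247 was 10.4 CPM (nearest 9.70), CD14 was 31.0 CPM (nearest 12.4) and CD68 was 20.7 CPM (nearest 11.2). There, CD163 was 102 CPM (nearest 34.4), CD5L was 0.587 CPM (nearest 0.162) and CD1B was 0.0652 CPM (nearest 0). There, CD300A was 2.15 CPM (nearest 0.404), CD101 was 1.5002 CPM (nearest 0.323) and CD80 was 2.28 CPM (nearest 0.837). In the fat of bull 5, CD247 was 22.0 CPM (nearest 11.5), CD151 was 2130.3 CPM (nearest 1042) and CD164 was 23.6 CPM (low, nearest 136). There, CD300LB was 1.31 CPM (nearest 0.271), CD63 was 1047 CPM (nearest 525) and CD81 was 871 CPM (nearest 424). There, CD244 was 4.71 CPM (nearest 2.26).

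In the muscle of bull 1, CD79A was 5.38 CPM (nearest 0.497), CD53 was 5.91 CPM (nearest 2.65) and CD180 was 1.91 CPM (nearest 0.331). In the fat of cow 2, CD53 was 30.1 CPM (nearest 14.6), CD9 was 427 CPM (nearest 194) and CD1B was 10.7 CPM (nearest 1.34). In the liver of cow 4, CD5L was 265 CPM (low, nearest 447) and CD53 was 8.14 CPM (low, nearest 17.3). In the pituitary of cow 5, CD5L was 0.410 CPM (nearest 0.145) and CD300LB was 0.342 CPM (nearest 0). In the muscle of bull 4, CD28 was 0.166 CPM (nearest 0) and CD300LB was 0.497 CPM (nearest 0). In the liver of bull 5, CD1B was 0.0944 CPM (nearest 0) and CD63 was 158 CPM (low, nearest 229). In the muscle of cow 4, CD99 was 149 CPM (low, nearest 384) and CD101 was 10.05 CPM (nearest 2.16). In the muscle of cow 3, CD79A was 1.65 CPM (nearest 0.414). In the liver of cow 3, CD68 was 423 CPM (nearest 166). In the pituitary of cow 3, CD68 was 48.4 CPM (nearest 16.3). In the fat of bull 2, CD163 was 678 CPM (nearest 291). In the liver of bull 4, CD37 was 8.82 CPM (nearest 5.43). In the muscle of bull 2, CD200 was 3.25 CPM (nearest 2.15). In the fat of cow 5, CD300LB was 0.236 CPM (nearest 0.0580). In the muscle of cow 2, CD300A was 1.73 CPM (nearest 0.739). In the liver of bull 2, CD101 was 0.895 CPM (low, nearest 2.27). The values of CD1B in liver and pituitary, CD28 in muscle and CD300LB in muscle and in the pituitary of cow 5 rest on 1 to 5 reads against 0 reads in the other 4 libraries of the group. With all 40 libraries, no member's sex difference passed the LRT of its difference between tissues, while CD200 passed it without cow 5.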

How the results depend on the processing

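The tissue counts held within 1.5 times in most settings. The shares of all genes called in most of these settings are not given here. The counts below thus show how the calls moved and are no result about the members. With the animal as a replicate block, 26 members were highest in liver, 13 in fat and 24 lowest in pituitary, and with that block in voom 0 members differed by sex over the 4 tissues. With library sizes alone, 1 was highest in pituitary, 7 were lowest in muscle, 11 were lowest in pituitary, 1 differed by sex in pituitary and 7 did over the 4 tissues. The quasi-likelihood test called 0 in muscle, 0 in pituitary and 0 over the 4 tissues. Without the fat library of bull 5, 9 were highest in fat. Leaving out 1 animal at a time gave 22 to 26 highest in liver, 11 to 14 in fat, 0 to 1 in muscle and 22 to 25 lowest in pituitary, and 0 to 1 that differed by sex in liver, 0 to 10 in muscle, 0 to 4 in pituitary, 0 to 7 over the 4 tissues and 0 to 1 for the interaction. Of the 665 comparisons of 35 differences between the first and second tissue of a named member, 624 kept direction and side of the threshold, 13 fell out of the threshold, 13 came under it and 15 turned direction. All 15 were uncalled differences. CD83 (fat minus pituitary, log2) was -0.11 with the block and -0.055 to 0.35 over the animals left out, lowest without bull 2. CD4 (fat minus liver) was -0.015 with DESeq2, -0.012 with RLE factors, -0.17 without the fat library of bull 5, -0.097 without both doubted libraries and up to 0.23 without bull 4. CD48 (liver minus fat) was -0.69 with library sizes alone, -0.021 without cow 1, -0.061 without cow 4, -0.14 without cow 5, -0.014 without bull 1, -0.084 without bull 4 and 0.21 without the fat library of bull 5. CD68 and CD244 (liver minus fat) were -0.15 and -0.17 with library sizes alone, and CD53 (fat minus liver) was -0.048 to 0.24 over the animals left out, lowest without bull 2. Of 232 comparisons of 15 sex differences, 170 kept their side, 55 fell out of the threshold, 7 came under it and none turned. The cause of these changes was not tested. Precision was limited by depth for members with few reads: 6 had 3 reads or more in fewer than 20 of 40 libraries.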
